A study of Mus musculus with 15 samples.

Results

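The genes described here are 27 listed mouse genes of cholesterol synthesis, its sterol-sensing control and the movement of cholesterol within the cell. They were found by matching the Ensembl identifiers of the deposited count table to gene symbols. Of the 27, 26 matched 1 of the 37991 identifiers each. For Hmgcs1, HMG-CoA synthase, no deposited identifier matched the reference, and it was not analysed here. All 26 matched genes passed the low-count filter of every comparison. The mice were C57BL/6, either wild type or IL-33-/-, that is, lacking the gene for the cytokine IL-33. Brown adipose tissue was taken at postnatal day 0.5, with 4 wild-type and 4 knockout libraries. Inguinal white adipose tissue was taken at postnatal day 24, with 4 wild-type and 3 knockout libraries. Each library was polyadenylated RNA from whole tissue, prepared with a strand-keeping kit, and no sorting of cells is described in the labels. Tissue and age changed together, so depot and age cannot be told apart in any comparison of brown with inguinal fat. The labels do not say which libraries came from separate animals or from pooled tissue, so p-values measure only the spread between these libraries.

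Cells build cholesterol from acetyl-CoA through mevalonate and the isoprenoid diphosphates, then through squalene and lanosterol, whose ring is trimmed and rearranged to cholesterol. The transcription factor SREBP2 raises most of these enzymes together: when membrane sterol is low, SCAP carries it from the endoplasmic reticulum to the Golgi, where it is cut and released, and when sterol is high the INSIG proteins hold SCAP back. Cholesterol that enters by lipoprotein uptake leaves the lysosome through NPC2 and NPC1. Adipocytes hold a large pool of free cholesterol, much of it at the lipid droplet, and they also make fatty acids under the related factor SREBP1.

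Total counts ran from 26059635 to 53923009 per library. Il33 itself was measured in the inguinal wild-type libraries at 3.45 to 4.61 CPM (counts relative to library size, scaled with TMM factors) and in the inguinal knockout libraries at 0.0791 to 0.471 CPM. In brown fat it was at 1.73 to 3.21 CPM in the wild type and 0.413 to 1.75 CPM in the libraries labelled knockout, so those groups overlapped and the brown libraries are called by their labels below. The adipocyte marker sum (6 genes) was 10494.5 to 12412 CPM in brown wild type and 17284 to 19572 CPM in inguinal wild type. The brown adipocyte sum (6 genes) was 5308 to 9523 CPM and 1303 to 2014 CPM in the same groups, and no marker of either list was at 0. Skeletal muscle genes (8) summed to 1997 to 3467 CPM in brown wild type. In whole tissue, fewer cells of a type and less RNA per cell cannot be told apart.

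Promoter letters of 6 genes named in the results are shown because cholesterol genes are classically read by SREBP2 together with the CCAAT-binding factor NF-Y. They come from RefSeq on build GRCm38.p6, which is not the mm9 build of the counts, and of the 27 listed genes 22 had an entry. Among the genes with an entry but not printed are Cyp51 and Pmvk, which were also higher in inguinal knockout fat. Each line holds bases from the 250 before the annotated start, in the gene's own direction and cut off where an annotated exon of that gene begins. Capitals mark CCAAT or its reverse complement ATTGG. Lss, Sc5d, Nsdhl and Srebf2 were higher and Lbr was lower in inguinal knockout fat, and Insig1 and Sc5d had the widest gaps between the wild-type depots. The Lss stretch is chr10:76531355-76531587 (plus strand), that of Sc5d is chr9:42264301-42264550 (minus strand), that of Nsdhl is chrX:72918271-72918520 (plus strand), that of Srebf2 is chr15:82147019-82147180 (plus strand), that of Insig1 is chr5:28071162-28071362 (plus strand) and that of Lbr is chr1:181842402-181842651 (minus strand), which also lies within an intron of longer annotated Lbr transcripts.
Lss: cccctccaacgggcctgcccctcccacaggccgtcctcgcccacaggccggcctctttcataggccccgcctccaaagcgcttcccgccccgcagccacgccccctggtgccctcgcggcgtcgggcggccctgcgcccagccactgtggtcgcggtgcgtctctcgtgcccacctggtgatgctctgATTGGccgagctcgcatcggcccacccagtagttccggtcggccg
Sc5d: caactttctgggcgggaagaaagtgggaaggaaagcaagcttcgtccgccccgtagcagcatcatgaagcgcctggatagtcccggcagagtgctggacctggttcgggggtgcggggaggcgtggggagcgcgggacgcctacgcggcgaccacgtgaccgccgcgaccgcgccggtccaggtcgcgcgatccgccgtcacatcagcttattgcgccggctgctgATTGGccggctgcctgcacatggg
Nsdhl: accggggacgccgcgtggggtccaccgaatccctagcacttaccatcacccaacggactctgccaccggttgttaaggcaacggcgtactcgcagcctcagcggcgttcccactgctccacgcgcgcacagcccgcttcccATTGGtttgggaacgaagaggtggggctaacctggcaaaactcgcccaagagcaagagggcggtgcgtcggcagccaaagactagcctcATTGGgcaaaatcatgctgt
Srebf2: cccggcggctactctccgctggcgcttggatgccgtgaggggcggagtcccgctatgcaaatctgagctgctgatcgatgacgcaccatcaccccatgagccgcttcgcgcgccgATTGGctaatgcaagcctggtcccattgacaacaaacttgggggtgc
Insig1: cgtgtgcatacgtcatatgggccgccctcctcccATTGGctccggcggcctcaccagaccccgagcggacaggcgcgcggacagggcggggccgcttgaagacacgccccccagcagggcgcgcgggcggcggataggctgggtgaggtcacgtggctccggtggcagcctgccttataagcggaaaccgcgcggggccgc
Lbr: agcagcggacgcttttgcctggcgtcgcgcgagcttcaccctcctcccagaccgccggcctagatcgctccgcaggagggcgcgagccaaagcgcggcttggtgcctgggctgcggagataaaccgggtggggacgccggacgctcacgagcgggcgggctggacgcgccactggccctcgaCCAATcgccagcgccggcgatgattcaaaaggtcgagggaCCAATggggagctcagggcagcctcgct
Of these 6 stretches, Nsdhl and Lbr held the motif 2 times and the other four held it 1 time. In the whole 250-base windows, CCAAT on either strand was found for 20 of 22 listed genes (90.9%), against 37.5% of all 27025 genes in the table. GGGCGG, the core of the GC box bound by Sp1, was also found for 20 of 22 (90.9%, against 35.4%). The E-box CACGTG, which SREBP1 can bind, was found for 5 of 22 (22.7%, against 6.86%), namely Dhcr7, Hsd17b7, Insig1, Sc5d and Scap. The sterol element written as TCACNCCAC was found for 1 of 22, Hmgcs1 (4.55%, against 1.22%). A gene counted when any of its windows held the motif, and 4 of the 22 had more than 1 window. By window the shares were 71.4% for CCAAT, 78.6% for GGGCGG, 17.9% for CACGTG and 3.57% for TCACNCCAC. Over all windows in the table they were 33.8%, 32.7%, 6.02% and 1.05%. Both strands were searched for each motif, and matches that overlap another motif were counted. These are letter matches in 1 window a start site, not sites shown to be bound.

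**Figure D1:**
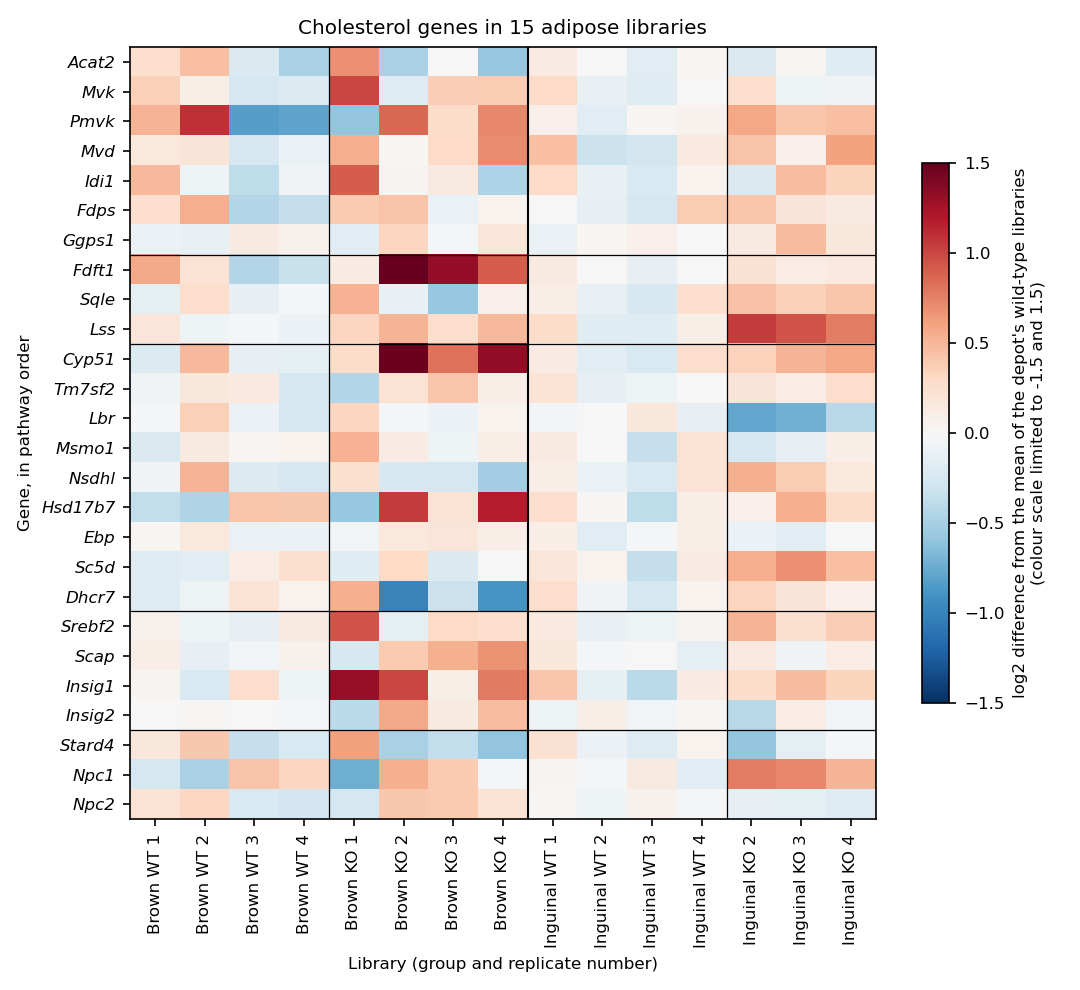
Level of each of the 26 genes in each of the 15 libraries, as log2 of its TMM-scaled CPM. From each value the mean of that gene over the wild-type libraries of the same depot is subtracted. Rows follow the pathway. Each depot is set against its own wild type, so the difference between the depots is not shown here.

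In wild-type mice, most cholesterol synthesis transcripts were far lower in newborn brown fat than in day 24 inguinal fat. By edgeR's quasi-likelihood test at an adjusted p under 0.05, 20 of the 26 genes were lower in brown fat and 3 were higher. Over all 15979 genes tested 61.4% passed this test, 30.7% higher and 30.7% lower, while 76.9% of the 26 were lower. Their median log2 difference, brown over inguinal, was -1.08, against 0.01 over all genes. Among the 26, the gap was widest for the lathosterol desaturase Sc5d (ENSMUSG00000032018), which was at 10.4, 10.7, 12.9 and 14.1 CPM in the brown libraries and at 165, 150, 114 and 158 CPM in the inguinal ones. The groups lie far apart, a 12.2-fold difference (log2 -3.61, SE 0.14, edgeR adjusted p 1.22e-08).

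All 9 genes of the steps from lanosterol to cholesterol were lower in brown fat, with a median log2 difference of -1.30. Msmo1, the oxidase that starts removal of the C4 methyl groups, averaged 9.86 ± 0.997 CPM (SD, n = 4) in brown fat and 54.2 ± 8.85 CPM (SD, n = 4) in inguinal fat, 5.50-fold apart (adjusted p 3.04e-08). Nsdhl, the next enzyme in that removal, differed by -2.13 (adjusted p 8.51e-06), and Cyp51, the lanosterol demethylase, by -1.82 (adjusted p 1.52e-05). Hsd17b7, the keto reductase of that removal, differed by -1.30 (adjusted p 0.000499). Ebp, the sterol isomerase, differed by -1.18 (adjusted p 3.83e-07), and Dhcr7, the last reductase, by -1.14 (adjusted p 8.21e-06). Among the 9, the narrowest gap was that of Lbr, the nuclear envelope receptor that also reduces the C14 double bond of sterols, at -0.47 (adjusted p 0.00504). Tm7sf2, which reduces the same bond in the endoplasmic reticulum, differed by -1.0 (adjusted p 2.34e-05).

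Of the 7 mevalonate-arm genes measured, 5 were lower in brown fat, and the median was -2.10. The farnesyl diphosphate synthase Fdps was at 14.3, 17.4, 8.86 and 9.35 CPM in brown fat, against a mean of 62.3 ± 12.4 CPM (SD, n = 4) in inguinal fat (log2 -2.32, adjusted p 6.42e-05). Mvd, the mevalonate diphosphate decarboxylase, averaged 4.32 ± 0.613 CPM against 20.3 ± 5.31 CPM (SD, n = 4 each). Mevalonate kinase Mvk differed by -2.16 (adjusted p 2.79e-07) and the isomerase Idi1 by -2.10 (adjusted p 4.40e-06). Idi1 was scarce in brown fat, with 31 counts in its lowest brown wild-type library. Acat2, a cytosolic thiolase that feeds the pathway, differed less (-0.86, adjusted p 0.00356). The geranylgeranyl diphosphate synthase Ggps1 did not pass the test (0.11, adjusted p 0.261), nor did the phosphomevalonate kinase Pmvk (-0.74, adjusted p 0.193), whose 4 brown libraries read 64.8, 96.8, 25.7 and 26.3 CPM.

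The steps from farnesyl diphosphate to lanosterol went in both directions. Fdft1, squalene synthase and the first enzyme committed to sterols, was higher in brown fat, with libraries at 242, 191, 120 and 130 CPM against a mean of 84.3 ± 6.17 CPM (SD, n = 4) in inguinal fat. All 4 brown libraries were above the inguinal mean (2.02-fold, log2 1.02, SE 0.21, adjusted p 0.00324). The squalene epoxidase Sqle was lower (9.70 ± 1.31 against 34.6 ± 5.18 CPM, SD, n = 4 each, log2 -1.84, adjusted p 2.74e-07). The lanosterol synthase Lss differed only slightly (-0.34, adjusted p 0.0157), and without inguinal wild-type library 1 its adjusted p was 0.0532.

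Among the control genes, Insig1, itself a target of SREBP2 and the brake on SCAP, was at 90.4, 74.8, 106 and 83.0 CPM in brown fat and at 694, 473, 391 and 567 CPM in inguinal fat. That is a 6.00-fold gap (log2 -2.58, SE 0.18, adjusted p 1.54e-06). Srebf2, which encodes SREBP2, differed by -1.01 (adjusted p 1.15e-06) and the second brake Insig2 by -0.38 (adjusted p 0.000238). Scap was higher in brown fat by 0.39 (adjusted p 0.00120). Of the transport genes, the lysosomal exporter Npc1 was higher in brown fat, at 83.9, 71.9, 135 and 126 CPM against 48.0, 46.3, 51.6 and 42.0 CPM (2.22-fold, log2 1.15, adjusted p 0.000991). Its partner in the lysosome lumen, Npc2, was lower (log2 -1.02, adjusted p 3.63e-05), and the sterol carrier Stard4 did not pass the test (-0.37, adjusted p 0.0711).

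The wild-type depots also differed in their makeup of cells. Of 6 adipocyte markers, 5 were lower in brown fat, with a median log2 difference of -0.76. Of 8 skeletal muscle markers, 6 were higher and 2 lower in brown fat. All 6 B cell and all 5 T cell markers and 3 of 5 macrophage markers were lower in brown fat, and all 4 endothelium markers and 4 of 6 brown adipocyte markers were higher. The part of these differences in the cholesterol gene values was not tested.

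**Figure D2:**
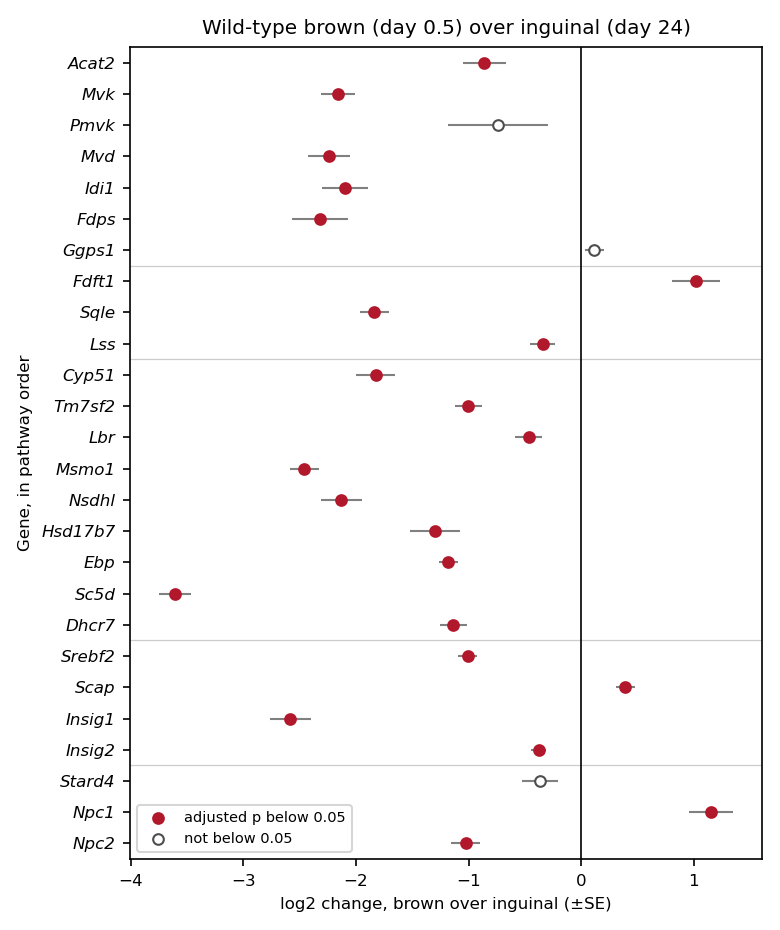
The log2 difference of each gene between wild-type brown fat at day 0.5 and wild-type inguinal fat at day 24, in pathway order, with bars for the SE and filled points for an edgeR adjusted p under 0.05. Points left of 0 are lower in brown fat, from Sc5d at -3.61 to Npc1 at 1.15 on the right.

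In day 24 inguinal fat, knockout libraries had more of several cholesterol synthesis transcripts, most of all Lss, and less Lbr. Of the 26 genes, 8 were higher and 1 was lower than in wild type (edgeR adjusted p under 0.05). This comparison called 28.6% of all 15710 genes tested, 15.3% higher and 13.3% lower. The 26 genes stood at 34.6% called and 30.8% higher, and the share called was thus near that of all genes. Their median log2 change was 0.23, against -0.02 over all genes, and 19 of 26 values were positive.

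Lss (ENSMUSG00000033105), which closes squalene epoxide into the first sterol ring, was at 58.7, 42.8, 42.9 and 51.5 CPM in wild type and at 101, 93.7 and 82.4 CPM in the knockout. The groups did not overlap, and the change was 1.90-fold (log2 0.93, SE 0.12, adjusted p 9.59e-05). Here and below, gaps between groups come from the same libraries as the test and are not separate evidence. The share of all genes with such a gap was not counted. Just before it in the pathway, Sqle read 36.7, 31.9, 29.1 and 40.8 CPM in wild type and 46.6, 43.8 and 45.8 CPM in the knockout. These groups too were apart (log2 0.40, SE 0.11, adjusted p 0.0144), but without wild-type library 3 the adjusted p was 0.0503. Fdft1 did not pass the test (84.3 ± 6.17 against 94.2 ± 3.93 CPM, SD, n = 4 and 3, log2 0.17, adjusted p 0.151).

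Of the 9 genes from lanosterol to cholesterol, 3 were higher and 1 was lower, with a median log2 change of 0.20. Cyp51 was at 73.9, 61.1, 58.0 and 81.6 CPM in wild type and at 86.6, 96.9 and 102 CPM in the knockout, again without overlap (log2 0.48, SE 0.11, adjusted p 0.00655). Sc5d was at 165, 150, 114 and 158 CPM in wild type and at 211, 235 and 199 CPM in the knockout (log2 0.56, SE 0.12, adjusted p 0.00322). Every knockout library exceeded every wild-type library for both genes.

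Nsdhl, an X-linked gene, gave the weakest call of the 9, at 109, 95, 87.0 and 119 CPM in wild type and 147, 132 and 113 CPM in the knockout. The groups overlapped, since wild-type library 4 lay above knockout library 4 (log2 0.37, SE 0.12, adjusted p 0.0320). Its adjusted p was 0.0899 without wild-type library 2, 0.104 without wild-type library 3, 0.119 without knockout library 2 and 0.0892 without knockout library 3. Lbr (ENSMUSG00000004880) went the other way, at 40.8, 42.0, 47.4 and 38.7 CPM in wild type and 24.6, 25.4 and 31.4 CPM in the knockout. It fell 1.54-fold with no overlap between the groups (log2 -0.62, SE 0.11, adjusted p 0.000816). Tm7sf2, the other sterol C14 reductase, had 18.3 ± 1.89 CPM in wild type (SD, n = 4) and 20.8 ± 1.09 CPM in the knockout (SD, n = 3), a change of 0.20 that did not pass the test (adjusted p 0.182).

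In the mevalonate arm 1 of 7 genes was higher, with a median of 0.24. Pmvk was at 93.5, 79.5, 90.4 and 92.8 CPM in wild type and at 132, 118 and 121 CPM in the knockout. The lowest knockout library thus stood above the highest wild-type one (1.41-fold, log2 0.49, SE 0.09, adjusted p 0.00122). Mvd, at 27.1, 15.9, 16.4 and 22.0 CPM against 26.7, 20.9 and 30.1 CPM, overlapped and did not pass (0.36, adjusted p 0.169), and Ggps1 came near the threshold (0.28, adjusted p 0.0567).

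Of the 4 control genes, Srebf2 was higher, at 53.9, 45.2, 46.3 and 50.1 CPM in wild type and 69.5, 57.5 and 62.9 CPM in the knockout. The groups were separate and the change small (log2 0.39, SE 0.10, adjusted p 0.00852). Insig1 had 531 ± 130 CPM in wild type (SD, n = 4) and 669 ± 47.7 CPM in the knockout (SD, n = 3), which did not pass (0.35, adjusted p 0.120), and the values of Scap (0.08, adjusted p 0.594) and Insig2 (-0.09, adjusted p 0.596) were close to 0. Of the transport genes, Npc1 was higher, at 48.0, 46.3, 51.6 and 42.0 CPM in wild type and 79.8, 77.5 and 66.9 CPM in the knockout. No wild-type library reached the lowest knockout one (1.61-fold, log2 0.68, SE 0.10, adjusted p 0.000198). Npc2 (-0.14, adjusted p 0.246) and Stard4 (-0.23, adjusted p 0.215) did not pass.

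**Figure D3:**
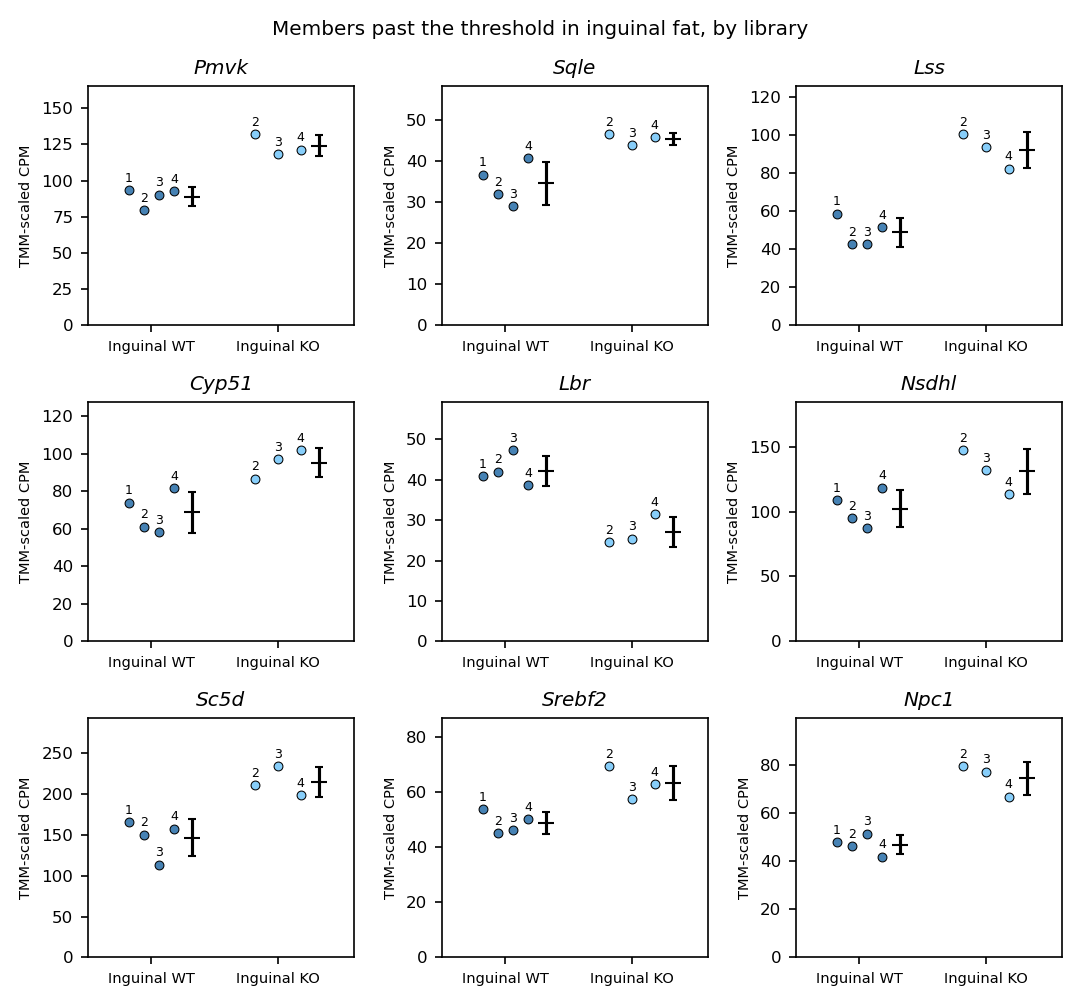
TMM-scaled CPM of the 9 genes called in inguinal knockout fat, with 1 point for each of the 4 wild-type and 3 knockout libraries and the mean with its SD beside them. The groups are apart for every gene shown except Nsdhl, and Lbr is the gene in which the knockout points lie below the wild-type ones. The genes were picked by the test on these libraries, so the gaps are not separate evidence.

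Cell type markers moved in the same comparison. In inguinal fat the brown adipocyte sum was 1303 to 2014 CPM in wild type and 2703 to 3453 CPM in the knockout, with 4 of 6 genes higher. The skeletal muscle sum was 126 to 352 CPM in wild type and 37.1 to 41.6 CPM in the knockout, with 7 of 8 genes lower. The B cell sum (6 genes, 2 lower) was 12.6 to 22.3 CPM in wild type and 4.56 to 14.6 CPM in the knockout. The adipocyte sum overlapped, at 17284 to 19572 CPM and 17166 to 18209.5 CPM. The endothelium sum (4 genes, 2 lower) was 796 to 976 CPM in wild type and 704 to 781 CPM in the knockout. The epithelium sum (6 genes) was 3.14 to 9.85 CPM and 0.941 to 1.27 CPM, with 1 marker at 0 in every knockout library, and Cdh1, the 1 marker that could be tested, was lower (log2 -1.58, edgeR adjusted p 0.000201). Among the T cell (5), macrophage (5) and red cell (6) markers the smallest edgeR adjusted p was 0.143, for Adgre1. No brown adipocyte, muscle, B cell, adipocyte or endothelium marker was at 0 in a whole group, and the part of other cell types in the cholesterol gene changes was not tested.

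When all 4 groups were fitted together, only Lss, Sc5d and Lbr of these 9 passed in inguinal fat. That is 3 of the 26 genes, and the same fit called 13.3% of all genes in place of 28.6%. The adjusted p then was 0.486 for Pmvk, 0.178 for Sqle, 0.200 for Cyp51, 0.231 for Nsdhl, 0.173 for Srebf2 and 0.0960 for Npc1.

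In newborn brown fat no gene of the 26 passed edgeR's test between the libraries labelled knockout and wild type. This comparison called 0.260% of 15796 genes, 0.184% higher and 0.0760% lower. At an unadjusted p under 0.05 stood 4 of the 26 genes and 2930 of all genes. DESeq2's Wald test called 4 of the 26 genes, all higher (Fdft1, Lss, Cyp51 and Insig1), and limma-voom with quality weights called 6, 5 higher and 1 lower. Over all genes the same fits called 6.53% with DESeq2 and 19.8% with limma-voom, beside 15.4% and 23.1% of the 26. The median log2 change was 0.17, against 0.01 over all genes, and 21 of 26 values were positive. The values ran from -0.30 for Dhcr7 to 1.07 for Fdft1.

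Lss kept the groups apart, at 43.8, 36.8, 37.9 and 36.1 CPM in wild type and 48.3, 55, 46.3 and 54.1 CPM in the labelled knockout. No library of one group reached the other, but the change did not pass (log2 0.39, SE 0.10, edgeR adjusted p 0.112). Cyp51 was at 16.5, 26.6, 17.5 and 17.2 CPM in wild type and at 23.1, 52.6, 33.5 and 48.0 CPM in the labelled knockout. Labelled knockout library 1 lay below wild-type library 2 (log2 1.01, SE 0.26, adjusted p 0.112). Insig1 was at 90.4, 74.8, 106 and 83.0 CPM and at 218, 175, 93.6 and 150 CPM, where labelled knockout library 3 fell among the wild-type values (0.84, SE 0.23, adjusted p 0.123). Fdft1 was at 242, 191, 120 and 130 CPM against 178, 540, 409 and 306 CPM. Its labelled knockout library 1 fell among the wild-type values (1.07, SE 0.34, adjusted p 0.155).

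Labelled knockout library 1 stood apart for several of the genes. Of the 26 genes, 11 had their highest and 11 their lowest value of the labelled knockout group in it. Labelled knockout library 2 held the highest value for 10 genes and the lowest for 4. Wild-type library 2 held the highest value of its own group for 14 genes and the lowest for 5. Dhcr7 read 23.0 CPM there and 7.93, 12.7 and 8.64 CPM in the other three, against 13.9, 15.1, 18.4 and 16.5 CPM in wild type. Srebf2 read 46.4 CPM there and 22.1, 29.4 and 28.8 CPM in the others, and Scap 41.0 CPM there and 63.6, 70.3 and 77.2 CPM in the others. Il33 read 0.413 CPM in labelled knockout library 1, the lowest of its group, and 1.75, 1.41 and 0.594 CPM in the others. A fit without library 1 thus keeps the labelled knockout libraries with more Il33, up to the wild-type range (1.73 to 3.21 CPM). Without library 1, 5 genes were higher, which were Cyp51 (log2 1.20, edgeR adjusted p 0.00541), Fdft1 (1.29, 0.0194), Lss (0.42, 0.0198), Scap (0.53, 0.00630) and Insig2 (0.40, 0.0281). Dhcr7 was then lower (-0.72, adjusted p 0.0243), and the comparison called 2905 genes in all in place of 41, which is 18.1% of genes beside 23.1% of the 26.

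The wild-type brown libraries also differed among themselves. Npc1 read 83.9 and 71.9 CPM in libraries 1 and 2 and 135 and 126 CPM in libraries 3 and 4, and Hsd17b7 read 5.42 and 5.13 CPM against 9.37 and 9.26 CPM. Pmvk, Fdps and Fdft1 went the other way, higher in libraries 1 and 2. The split was not limited to these genes. A chi-square of the counts of 2 libraries, per degree of freedom, is larger where they are less alike. It was 22.1 for wild-type libraries 1 and 2 and 16.9 for 3 and 4, against 65.3 to 84.2 across these pairs. The brown wild-type group thus held 2 unlike pairs of libraries, which limits every comparison with it. The median coefficient of variation of the 26 genes, that is, SD over mean, was 16.7% in brown wild type, 29.1% in the labelled knockout, 13.2% in inguinal wild type and 9.36% in inguinal knockout. It was at least 40% for 6 genes in the labelled brown knockout and for 1 in brown wild type, Pmvk at 64.1%. The epithelium marker sum (6 genes) was 76.2 CPM in 1 labelled knockout library, number 4, against at most 1.56 CPM in the other brown libraries. The brown adipocyte sum was 3800 to 6809 CPM in the labelled knockout and 5308 to 9523 CPM in wild type. Ucp1 alone was at 1557 to 3235 CPM and 2480 to 6777 CPM in these groups. Of the 6 brown adipocyte genes 0 were called and 3 had a positive log2 change, with a median of -0.03. The part of these markers in the cholesterol gene values was not tested.

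**Figure D4:**
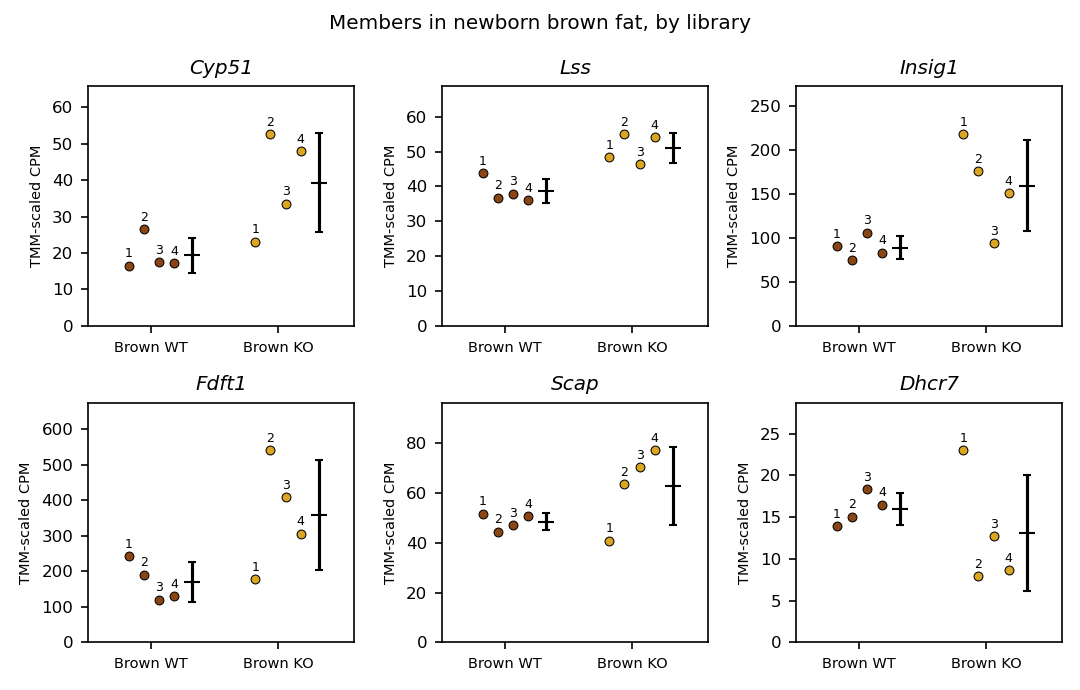
TMM-scaled CPM in each brown fat library for 6 genes, numbered by library, with the mean and SD of each group of 4. Lss separates the groups, while labelled knockout library 1 lies near or within the wild-type range for Fdft1, Cyp51 and Scap and above it for Dhcr7.

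Whether the knockout change itself differed between the depots was tested with an interaction term, in which age and depot cannot be told apart. It called 1 of the 26 genes, Lbr, and 9.00% of all 16858 genes tested, 4.80% higher and 4.20% lower in inguinal fat. Lbr changed by -0.62 in inguinal fat and by 0.05 in brown fat, where its libraries read 29.6, 38.7, 28.4 and 25.5 CPM in wild type and 37.6, 29.8, 28.5 and 31.3 CPM in the labelled knockout. The difference of the changes was -0.69 (SE 0.19, edgeR adjusted p 0.0360). This call was lost on leaving out any of 9 single libraries, where the adjusted p lay between 0.0543 (without inguinal wild-type library 1) and 0.102 (without inguinal knockout library 3). For Lss the difference was 0.51 (SE 0.17, adjusted p 0.0619). For the 25 genes not called, the differences ran from -0.91 for Fdft1 to 0.60 for Npc1. Without labelled knockout brown library 1 the count was 7, or 26.9% beside 21.2% of all genes, with 3 higher and 4 lower, among them Dhcr7 (0.91, adjusted p 0.00643), Scap (-0.46, adjusted p 0.0229) and Fdft1 (-1.12, adjusted p 0.0201).

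**Figure D5:**
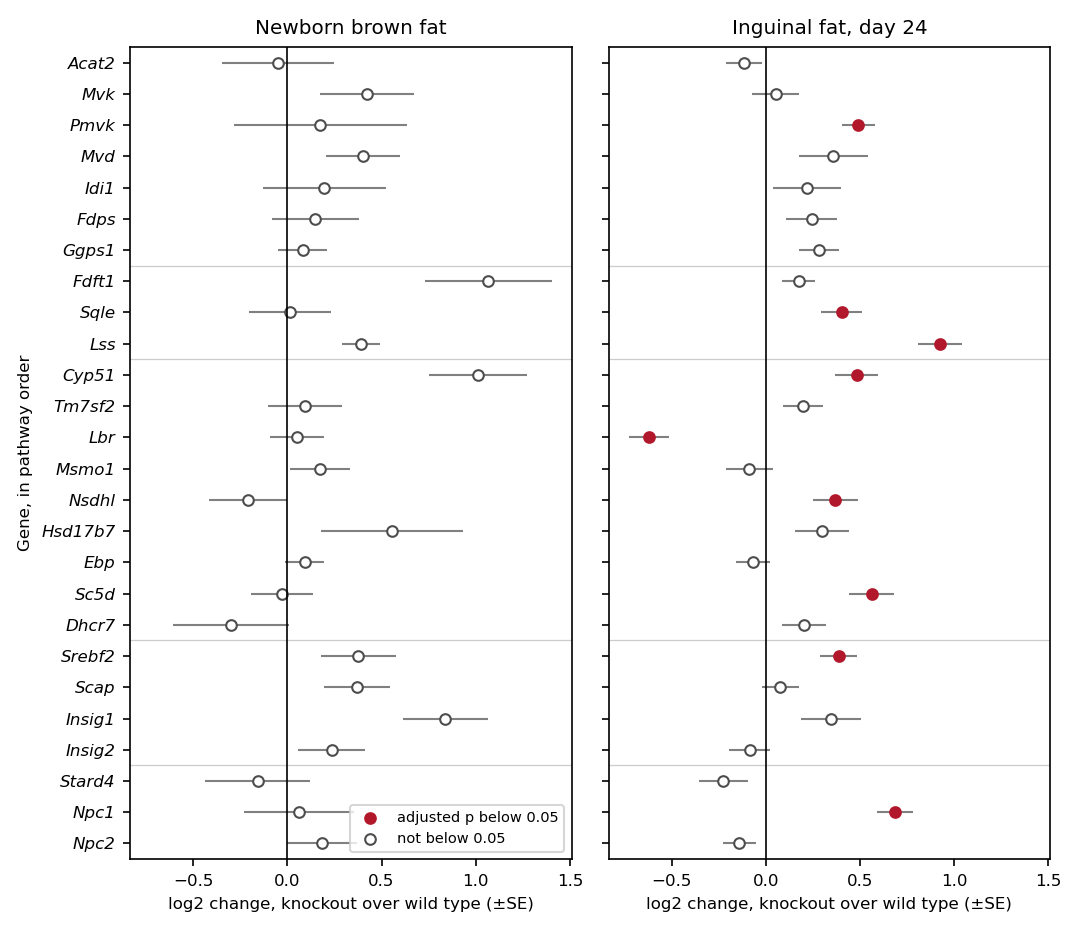
The log2 change from wild type to knockout of each gene in brown fat (left) and inguinal fat (right), in pathway order on 1 shared scale, with bars for the SE and filled points for an edgeR adjusted p under 0.05. No brown point is filled, and the filled inguinal points lie right of 0 except Lbr at -0.62.

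Genes around the pathway were summarised by list. In inguinal fat the fatty acid genes under SREBP1 had 9 of 13 higher and none lower, with a median log2 change of 0.76. They included the desaturase Scd2 (1.19, edgeR adjusted p 3.58e-05), the elongase Elovl6 (1.21), the stearoyl-CoA desaturase Scd1 (1.15) and the citrate lyase Acly (0.97). Of 13 genes that cut, hold or sense SREBP or that bind promoters with it, 3 were higher: the site-1 protease Mbtps1 (0.38), Faf2 (0.29) and the NF-Y subunit Nfyc (0.28). Of 13 genes of the isoprenoid branches, 5 were higher, among them Pdss2 (0.45), a subunit of the enzyme that makes the ubiquinone side chain, and the prenylcysteine methyltransferase Icmt (0.32).

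Of 15 genes of endosomal sterol handling and lipoprotein uptake, 8 were higher in inguinal knockout fat and none lower, with a median of 0.29. Lipa, the lysosomal acid lipase that frees cholesterol from its esters, rose by 0.81 (adjusted p 5.52e-05) and the lipoprotein receptor Vldlr by 0.77 (adjusted p 0.000302). Gramd1c, of a family of sterol transporters at membrane contacts, rose by 1.08. Of 14 genes of efflux, esterification and oxysterols, 2 were higher and 3 lower. The esterase Nceh1 (0.88) and the oxysterol-forming Cyp27a1 (0.90) rose, and those that fell included the lipoprotein receptor Scarb1 (-0.31) and Mylip (-0.32), a ligase that marks lipoprotein receptors for breakdown. All these calls stand beside the 28.6% called over all genes, and the marker shifts given above moved with them.

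In brown fat the median log2 changes of these lists lay between -0.06 and 0.37. The smallest edgeR adjusted p among their genes was 0.0695, for the endocytic receptor Lrp1 (0.79), followed by the oxysterol receptor gene Nr1h2 (0.70, adjusted p 0.0966) and the sterol exporter Abcg1 (1.83, adjusted p 0.0967). In the interaction test the inguinal change exceeded the brown one for Vldlr (1.03, adjusted p 0.00273), Lipa (1.42, adjusted p 0.0132), Mbtps1 (0.41, adjusted p 0.0444), Pdss1 (0.89, adjusted p 0.0254), Pdss2 (0.91, adjusted p 0.0411) and Icmt (0.45, adjusted p 0.0470). Called there were 2 of 15 endosomal and uptake genes, 1 of 13 genes around SREBP and 3 of 13 isoprenoid genes. None of the 13 fatty acid genes or the 14 efflux and oxysterol genes was called. Over all genes that test called 9.00%. Between the wild-type depots all 13 fatty acid genes were lower in brown fat, with a median of -2.20, and Srebf1, which encodes SREBP1, differed by -2.20 and the malic enzyme Me1, which supplies NADPH, by -4.76. The genes around SREBP, those for processing, sensing and promoter binding, were mixed there, with 5 higher and 4 lower of 13. The endosomal and uptake genes had 7 higher and 4 lower of 15, and 61.4% of all genes were called in that comparison.

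Some counts may hold reads of other genes. No label or note says whether reads were counted by strand. Reads in the stretches where genes overlap on opposite strands can then not be told apart for Fdft1 with Ctsb, Cyp51 with Akap9, Npc1 with Rmc1 and Ggps1 with Arid4b. In inguinal knockout fat Akap9 changed by 0.21 (adjusted p 0.0925) and Rmc1 by 0.12 (adjusted p 0.326), beside 0.48 for Cyp51 and 0.68 for Npc1. In brown fat Ctsb changed by 0.32 (adjusted p 0.258), beside 1.07 for Fdft1. Tm7sf2 overlaps Vps51 on the same strand. Acat2 is 97.7% identical to Acat3 over 1477 transcript bases, Fdft1 is 97.4% identical to Gm6781 over 1249 bases and Idi1 is fully identical to Gm13502 over 684 bases, so their counts are uncertain to that extent. Over all libraries Acat3 averaged 2.80 CPM, Gm6781 0.0114 CPM and Gm13502 0.0745 CPM. Ggps1 likewise has a near-identical copy, Gm5630, over 903 bases. Msmo1 shares short stretches with several genes, among them Zmynd8 (97.5% identical over 202 bases) and Eapp (95.5% over 201 bases). Zmynd8 averaged 46.0 CPM and Eapp 36.4 CPM over all libraries.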

How the data were processed

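The authors deposited raw read counts per Ensembl gene for 15 libraries, and per the submitters' processing notes TopHat2 2.1.0, featureCounts of Subread and edgeR were used with build mm9. The notes give neither their roles nor the strand setting. From the deposited counts, edgeR 4.0.16 in R 4.3.3 gave quasi-likelihood tests for each comparison on its own groups (filterByExpr with a minimum count of 10, TMM factors, robust dispersion, Benjamini-Hochberg adjustment over all genes tested, threshold 0.05). The SE of a log2 change is its size divided by the square root of F. Levels are CPM with TMM factors over all 15 libraries and are not scaled for gene length, so levels of different genes are not compared. Identifiers were matched to GENCODE symbols (32919 of 37991). No total is lower than 26059635 counts, and PCR duplicates were not marked by molecular identifiers. Alternatives were DESeq2 1.42.0, limma 3.58.1 (voom), other scaling and filters, a replicate block, 1 fit of all 4 groups and leaving out each library. Similar transcripts were sought with blastn 2.17.0 (at least 95% identity over 200 bases). Named were all listed genes, with library values for called genes or, in brown fat, the 5 smallest p-values, and up to 4 genes per companion list by smallest p. Dhcr7, Srebf2 and the wild-type library values named in brown fat were chosen after their values were seen. The members and lists were chosen with earlier results of these data known, so their direction is not independent evidence.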

Additional observations from a re-analysis of the deposited data

Results flagged for a closer look

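In brown wild-type fat, library 2 held 26.6 CPM of Cyp51, while the other three lay between 16.5 and 17.5 CPM. In brown fat labelled knockout, library 1 held 38.9 CPM of Stard4, while the other three lay between 16.9 and 19.7 CPM. Both were single libraries far from the rest of a group of 4. Among the 78 groups of 4 that were looked at, 2 had such a library, and chance gives about 1 in 20. The 3 inguinal knockout libraries were too few for this check.

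The knockout change of Lbr differed between the depots by -0.69 on the log2 scale in the interaction test, with depot and age changing together.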

How the results depend on the processing

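The number of the 26 genes called in brown fat was 0, and it was 4 by DESeq2's Wald test, 6 by limma-voom weighting libraries by quality, 4 in the joint fit of all 4 groups and 0 to 6 on leaving out each library. Calls over all genes rose with it, from 41 to 1032, 3127 and 1151 in those fits, and were 2 to 2905 on leaving out each library. The 9 calls in inguinal fat became 3 with all 4 groups in 1 fit, where calls over all genes went from 4498 to 2249. On leaving out each library the inguinal calls were 7 to 11, beside 3274 to 4719 over all genes. The 1 call of the interaction became 2 with DESeq2, 6 with limma-voom, 0 with the replicate block and 0 to 7 on leaving out each library. Over all genes the share called went from 9.00% to 13.9%, 21.9% and 5.15% in those fits. The share of the 26 went from 3.85% to 7.69%, 23.1% and 0%. On leaving out each library, the share over all genes ran from 3.64% to 21.2%. The 23 calls between the wild-type depots stayed within 1.5 times of that count in every alternative run. No gene changed sign where it was called. Of the listed genes that were not called, 8 in brown fat, 2 in inguinal fat and 8 in the interaction changed sign in some alternative. Lss, Sc5d and Lbr passed in all 15 inguinal alternatives, and Insig2 between the wild-type depots had an adjusted p of 0.0542 with all 4 groups in 1 fit. Same-numbered libraries correlated at -0.07 to 0.20 in brown fat and -0.13 to 0.10 in inguinal fat, so they share only a number. The Lbr interaction had an adjusted p of 0.0824 with the replicate block. With the replicate block 0 genes were called in brown fat, 12 in inguinal fat and 24 between the wild-type depots, and over all genes 7, 4089 and 9574 in place of 41, 4498 and 9814. In inguinal fat and in the interaction, the block also left out inguinal wild-type library 1, whose number no knockout library has. Leaving out that library without a block gave 11 calls in inguinal fat, beside 3883 over all genes. In the interaction it gave 1 call, beside 1100 over all genes. The causes of these shifts were not tested. Idi1, with 31 counts in its lowest library, is the gene that depth limits most.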
